A study of Drosophila melanogaster with 3 samples.

Results

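Of the 7827 reproducible ("optimal") binding peaks of the Drosophila melanogaster protein CG30403 in embryos, 435 (5.56%, 95% exact interval 5.06 to 6.09%) had their summit deep inside an intron. These deep intronic peaks were chosen by position alone. The summit, the base of strongest signal, had to lie inside a protein-coding gene, in no exon of any annotated gene, and more than 10000 bp from the nearest start (transcription start site, TSS) of any protein-coding gene. They made up 15.7% of the 2763 intronic peaks that lay more than 500 bp from such a TSS. All 435 lay in an annotated intron of a protein-coding transcript. The distance rule counted protein-coding TSSs only: 8 of the 435 summits lay within 500 bp of the TSS of an annotated noncoding RNA, as described with the TSS distances. Some peaks overlapped a neighbour, and the 435 merged into 415 separate regions.

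The assay was ChIP-seq, in which DNA bound by a protein is enriched with an antibody and sequenced, on whole embryos collected from 0 to 24 hours after egg laying, with males and females pooled. The flies came from a transgenic line that stably carries CG30403 with green fluorescent protein at its C terminus, and chromatin sonicated to 200 to 800 bp was pulled down through the fluorescent tag. The samples formed 1 group of 3 biological replicates. There was no other genotype, treatment or stage to compare with, and the whole organism mixes all embryonic cell types and ages. The shared control named in the notes was not analysed here. The lists give no read counts, so depth is unknown. Each replicate was therefore represented by a list of the same length as the optimal list, its 7827 strongest regions. In these lists 414, 434 and 434 summits of replicates 1, 2 and 3 met the same rule (427.3 ± 11.6, SD, n = 3).

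Introns are removed from the transcript, but their DNA can hold enhancers, silencers and other elements that bind transcription factors. In flies, long introns are common in genes for transcription factors, signalling receptors and neuronal adhesion molecules, many of which are expressed in intricate patterns in the embryo. A ChIP-seq peak marks DNA at or near which the tagged protein was crosslinked, directly or through a partner, and does not by itself show which gene the site serves.

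The DNA is printed for 6 of the 7 strongest deep intronic peaks, which lay in 6 genes for regulators of chromatin, transcription and signalling. These were osa (Osa, a subunit of the SWI/SNF chromatin remodelling complex), simj (a subunit of the NuRD deacetylase complex), Hr4 (a nuclear receptor of the ecdysone response), gpp (a histone H3 lysine methyltransferase), N (the Notch receptor) and fz (the Frizzled receptor). They are shown because they carried the most signal and because all are rich in A and T, a property described with the base composition. Each line gives the host gene, the dm6 position and the plus strand of the RefSeq Release 6 genome, 5′ to 3′, 50 bp on either side of the summit. Capitals mark matches, on either strand, to the 6 motifs named first in the sequence results (those with the largest ratios) and to the 7-mers named there. Matches to other motifs are not marked.
osa (3R:17700548-17700648): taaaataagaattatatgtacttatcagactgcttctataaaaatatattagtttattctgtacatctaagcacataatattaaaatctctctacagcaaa
simj (3L:10678716-10678816): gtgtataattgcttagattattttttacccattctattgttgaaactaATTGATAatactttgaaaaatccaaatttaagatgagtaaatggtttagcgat
Hr4 (X:1963885-1963985): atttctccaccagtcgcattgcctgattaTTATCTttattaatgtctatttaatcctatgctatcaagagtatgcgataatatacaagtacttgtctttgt
gpp (3R:6424058-6424158): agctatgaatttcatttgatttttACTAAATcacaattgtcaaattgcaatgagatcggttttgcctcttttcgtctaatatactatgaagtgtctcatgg
N (X:3162481-3162581): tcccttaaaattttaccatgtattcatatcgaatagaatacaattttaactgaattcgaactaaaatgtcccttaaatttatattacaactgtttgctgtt
fz (3L:14304014-14304114): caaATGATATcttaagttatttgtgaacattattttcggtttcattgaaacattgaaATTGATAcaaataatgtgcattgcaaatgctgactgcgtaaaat

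The strongest deep intronic peaks of 4 genes with many such peaks are shown in the same way. These were kirre and ed (immunoglobulin-family cell adhesion molecules), hth (the TALE homeodomain protein Homothorax) and Snoo (the fly homologue of the Ski and Sno co-regulators of Smad proteins). They were added after their values had been seen, so that the most occupied hosts are represented.
kirre (X:3085998-3086098): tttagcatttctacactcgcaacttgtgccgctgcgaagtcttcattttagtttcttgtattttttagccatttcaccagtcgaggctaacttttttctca
ed (2L:4080952-4081052): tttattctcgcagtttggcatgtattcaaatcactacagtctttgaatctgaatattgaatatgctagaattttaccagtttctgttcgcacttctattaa
hth (3R:10597744-10597844): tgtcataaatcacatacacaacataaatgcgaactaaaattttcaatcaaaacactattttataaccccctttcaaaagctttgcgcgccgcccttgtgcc
Snoo (2L:7925576-7925676): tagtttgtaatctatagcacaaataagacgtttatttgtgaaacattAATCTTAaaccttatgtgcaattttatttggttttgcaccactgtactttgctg

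The simj site is also shown with its surroundings, 300 bases in all, with the stretch shown above in capitals. The centre had 24.8% G and C, against 32.3% in the stretch to its left and 31.0% in the stretch to its right.
simj (3L:10678617-10678916): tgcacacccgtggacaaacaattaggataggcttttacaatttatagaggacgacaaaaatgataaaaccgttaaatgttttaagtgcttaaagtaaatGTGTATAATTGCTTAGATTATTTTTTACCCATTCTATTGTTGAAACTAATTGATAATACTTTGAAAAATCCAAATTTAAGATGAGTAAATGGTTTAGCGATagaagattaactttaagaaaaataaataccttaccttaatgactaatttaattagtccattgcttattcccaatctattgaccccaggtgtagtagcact

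The osa peak had the highest signal value of all deep intronic peaks, 1545 in the optimal list on the authors' own scale. The strongest overlapping region had a value of 306.0 in replicate 1, 789.4 in replicate 2 and 460.2 in replicate 3, and ranked 88, 97 and 285 in these lists. Its summit lay 13527 bp from the nearest protein-coding TSS, which belonged to the neighbouring gene CG31249. The simj peak followed with a value of 1406 and ranks of 167, 195 and 169. The Hr4, gpp, N and fz peaks had values of 928.7, 919.3, 917.6 and 876.6. Each of the 6 was found in the top list of every replicate, at ranks between 88 and 749.

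A pair of peaks in sbb (Scribbler, or Brakeless, a transcriptional corepressor) on arm 2R had values of 996.8 and 814.9. The 10 strongest were completed by a peak of 720.5 in mamo, a zinc finger transcription factor gene, and by a peak of 657.6 in an intron of the Hox gene Antp that CG46458 also spans. The same 10 peaks were also the 10 strongest among those found in every replicate top list. The mamo peak stood alone: the nearest other deep intronic peak on the arm was 731342 bp away.

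The peaks just inside the distance bound lay 10017 bp from a TSS in unc-5, and 10022 bp away in CG3726 and in the overlapping genes CG15465 and rg, with signal values of 132.5, 200.5 and 184.1. The nearest outside it lay 9995 bp away in Efa6, 9988 bp in nmo and 9984 bp in sdt, with values of 391.5, 337.3 and 170.8.

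Deep intronic DNA made up 17.5 Mb (13.1%) of the 133.6 Mb of the chromosome arms, counted base by base with the same rule. It therefore held 24.9 optimal summits per Mb, 0.425 times the density over all arms. In the replicate lists this ratio was 0.417 ± 0.0113 (SD, n = 3). Introns 2 to 10 kb from a TSS held 58.9 summits per Mb (1.01 times), introns 500 to 2000 bp away 109.5 per Mb (1.87 times), and promoters, within 500 bp of a TSS, 234.9 per Mb (4.01 times). Deep introns were thus below the average of the arms and below both classes of nearer introns. Their density was above that of exons outside promoters (6.96 per Mb) and below that of intergenic DNA (35.5 per Mb).

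The decline with distance went on inside the deep introns. From 10 to 20 kb the replicates had 35.0, 36.4 and 35.4 summits per Mb (35.6 ± 0.709, SD, n = 3). From 20 to 40 kb they had 26.9, 28.3 and 29.7 (28.3 ± 1.40). Beyond 40 kb they had 3.47, 4.05 and 4.43 (3.98 ± 0.485). The groups of replicate values for these 3 distance ranges did not overlap, and each lay below the values at 5 to 10 kb (53.1 ± 0.530). The optimal list had 286, 126 and 23 peaks in the 3 ranges. Signal did not follow the same order: the median values were 195.1, 205.2 and 207.8. The median TSS distance of the deep intronic summits was 15638 bp, against 21716 bp for all deep intronic bases, and the farthest, in hth, lay 85861 bp away. The median of the bases includes 10 large genes without a peak, described next. Without these genes 7.91 of 13.2 Mb lay at 10 to 20 kb, so the median of the bases was then below 20 kb.

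**Figure D1:**
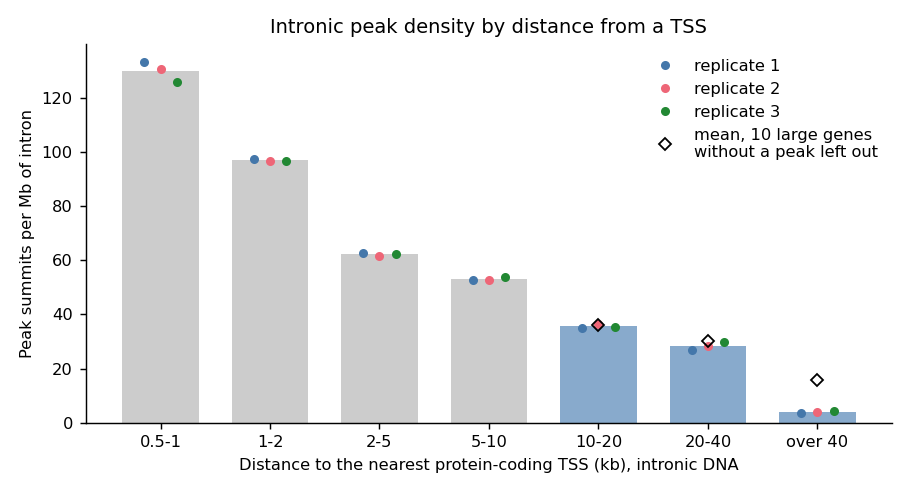
Summits per Mb of intronic DNA (vertical axis) by distance to the nearest protein-coding TSS in kb (horizontal axis). Bars are means of the 3 replicate lists, dots single replicates, blue bars the deep introns, and open diamonds the means after 10 large genes without a peak were left out. Density fell from 129.8 per Mb at 0.5 to 1 kb to 35.6 at 10 to 20 kb and 3.98 beyond 40 kb, where leaving out the 10 genes gave 15.97.

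Part of the deep intronic DNA lay in a few very large genes without any peak. The largest, Myo81F, a myosin gene, held 1777 kb of deep intronic DNA and no optimal peak. In the full replicate lists, which reach far into weak regions, its deep introns held 6, 0 and 0 regions. Others were Pzl (621.6 kb), lovit (392.9 kb), DIP-lambda (332.6 kb), CG17684 (326.9 kb) and bru3 (220.5 kb). By contrast the 140.8 kb of deep intron in kirre held 123, 127 and 127 regions of the full lists. Soft-masked repeats made up 17.1 to 46.1% of the deep introns of the 10 large genes and 12.0 to 30.8% in the 15 genes with most peaks. Whether reads could be mapped there was not tested. With these 10 genes left out, a choice made after their values were seen, density rose to 32.9 per Mb, 0.562 times that of all arms. Beyond 40 kb it was then 15.97 ± 1.94 per Mb (SD, n = 3), still below 30.1 ± 1.49 at 20 to 40 kb.

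The arms differed in the same way. Deep introns of 2L held 36.0 ± 0.900 summits per Mb and those of X 34.3 ± 2.98, above 21.0 ± 0.734 on 3R, 20.02 ± 1.88 on 3L and 18.9 ± 0.595 on 2R (SD, n = 3). The replicate values of 2L and X overlapped, and both lay above all values of the other 3 arms. Without the 10 large genes, which lie on 2R, 3L and 3R, density on 3R became 35.3 ± 1.23, within the range of 2L and X, while 3L (29.2 ± 2.73) and 2R (25.8 ± 0.812) stayed lower on average. None of the 27 optimal peaks on chromosome 4 was deep intronic, where such DNA covered 0.0819 Mb.

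Deep intronic peaks had the lowest median signal of the location classes in the optimal list. Their median signal value was 196.1, with the middle 50% between 156.9 and 307.1, against 219.2 in introns 2 to 10 kb from a TSS, 212.0 in intergenic DNA, 234.3 in exons, 281.7 at promoters and 244.0 over all optimal peaks. Since signal values cannot be compared between lists, each was turned into its percentile within its own list. The median percentile of deep intronic regions was 38.6, 34.9 and 37.0 in the lists of replicates 1, 2 and 3 (36.8 ± 1.89, SD, n = 3). Promoter regions had 57.8, 59.1 and 56.3 (57.7 ± 1.39), and introns at 2 to 10 kb had 44.4, 41.9 and 44.3 (43.5 ± 1.38). Intergenic regions had 40.5, 40.3 and 43.4, and exons 38.5, 48.2 and 46.6. In every replicate deep introns were below promoters, nearer introns and intergenic DNA, while exons were at about the same level in replicate 1 and higher in the others. The within-replicate difference was -20.9 ± 2.89 points from promoters and -6.70 ± 0.835 points from introns at 2 to 10 kb. In an exact two-sided sign-flip permutation test each gave p = 0.25, the smallest that 3 replicates allow, so the design cannot reach 0.05.

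The top of the list held few of them. None of the 100 strongest optimal peaks was deep intronic, a count that allows a share of up to 3% by counting error alone, while the 100 strongest regions of the replicates held 1, 1 and 0. There were 6 among the 500 strongest, 12 among the 1000 strongest (1.20%), 55 among the 2000 strongest (2.75%) and 161 among the 4000 strongest (4.03%). Intervals and limits of this kind cover counting error only.

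The replicates shared fewer of the deep intronic peaks than of all peaks. Of the 435, 279 (64.1%, interval 59.4 to 68.7%) were overlapped in the top lists of all replicates, against 74.0% of all optimal peaks. Replicate 1 covered 74.5% of them, replicate 2 90.6% and replicate 3 88.1% (84.4 ± 8.65%, SD, n = 3), against 91.4 ± 4.83% of promoter peaks. Other classes away from promoters were closer. In all replicates 69.3% of peaks in introns at 2 to 10 kb were found, and 66.75% of intergenic peaks (interval 64.0 to 69.4%). Their mean cover was 87.6 ± 5.41% and 86.2 ± 7.06%, so low sharing was not particular to deep introns. Split by signal, the shares lay closer together except among the weakest peaks. Among the 1957 weakest optimal peaks, 31 of 149 deep intronic peaks (20.8%) were found in all replicates, against 28.0% of all and 32.8% of promoter peaks. In the next 1957 the shares were 72.3% and 72.8%, in the next 1956 they were 98.1% and 95.7%, and among the strongest 1957 all 53 deep intronic peaks were found in every replicate. In all, 390 of the 435 were found in at least 2 top lists, and 3 in none. The optimal list was itself made by comparing replicates, so these shares describe it and are no independent test.

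**Figure D2:**
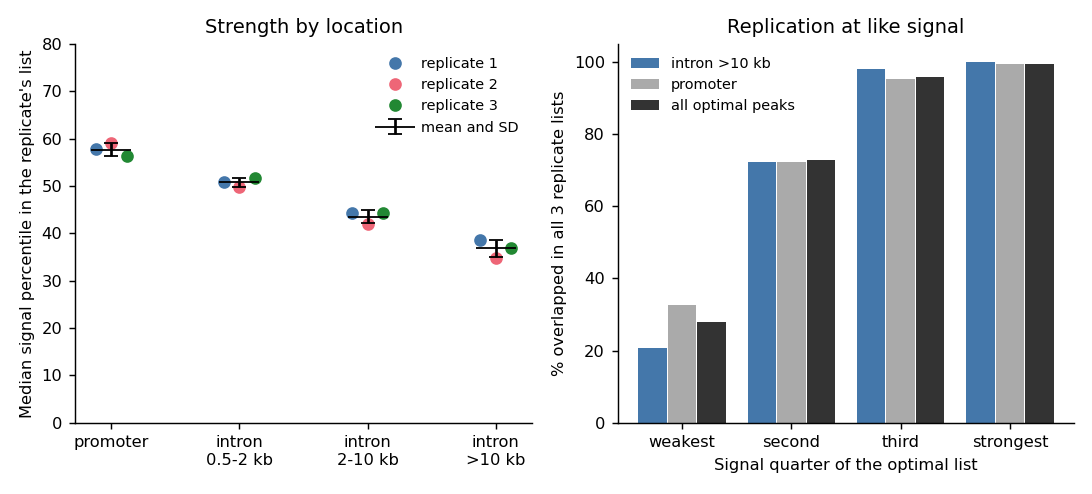
Left, the median signal percentile of summits in promoters and 3 intron classes within each replicate's list (dots; bars are mean and SD, n = 3). Right, the percentage of optimal peaks overlapped in all 3 replicate lists, for peaks grouped by signal from weakest to strongest. Of the 4 classes shown, deep introns had the lowest percentile in every replicate (34.9 to 38.6), and their share in all replicates rose from 20.8% to 100% with signal.

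The 435 peaks fell in 212 host genes, which is 24.6% of the 861 protein-coding genes that have any deep intronic DNA. In 110 of these genes there was 1 such peak, in 102 there were more, and 16 genes had at least 5. The 15 genes with most peaks, a choice that raises their share, held 112 of the 435 (25.7%) in 4.33% of the deep intronic DNA. They were kirre with 14 peaks, ed with 11, sbb with 10, hth and Snoo with 9, Sema1a with 8, Tet and pnt with 7, CG12535 and ftz-f1 with 6, and gpp, rdx, B4, tai and jing with 5. Ties were ordered by the strongest peak, and fz2, a Wnt receptor gene, also had 5.

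The most occupied host, kirre on X, encodes an adhesion protein of muscle founder cells. It had 14, 13 and 15 deep intronic summits in the lists of replicates 1, 2 and 3. Of its 14 optimal peaks, 11 lay between 265.6 and 305.8 kb from the 5′ end of the gene, within an intron downstream of an internal TSS. Their values ran from 139.1 to 371.8, and the strongest kirre peak, at 345.7 kb, had 404.0 (71.5, 189.0 and 135.8 in the replicates). The 2 remaining peaks, at 17.2 and 120.8 kb in intron 2, were weak (129.4 and 186.8) and were missing from at least 1 top list.

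In ed, on 2L, the replicates had 9, 11 and 9 summits. Its peaks were spread over the gene from 11.9 to 62.6 kb. The strongest were at 49.6 kb, with a value of 502.5, and at 62.6 kb, with 480.7. Only 6 of the 11 were found in every replicate, and a peak of 141.9 at 40.5 kb had no overlapping region in the full list of replicate 1.

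Among the 5 most occupied hosts the 10 peaks of sbb were the closest together, all between 12.8 and 32.1 kb from the 5′ end and all in intron 2. The replicates had 10, 10 and 13 summits there. Their median value of 383.8 was the highest among the 15 hosts with most peaks, and 7 of the 10 exceeded 300. The peaks at 19.9 and 20.1 kb matched the same region in each replicate, so the replicates do not separate them. In hth the 9 optimal peaks ranged from 11.1 to 118.9 kb, with values from 164.0 to 568.3, and the replicates had 12, 10 and 10 summits. In Snoo all 9 lay in intron 2, between 18.1 and 67.7 kb, and the replicates had 9, 7 and 9. Its peaks at 26.85 and 27.05 kb matched the same region in each replicate, as did those at 51.49 and 51.69 kb.

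**Figure D3:**
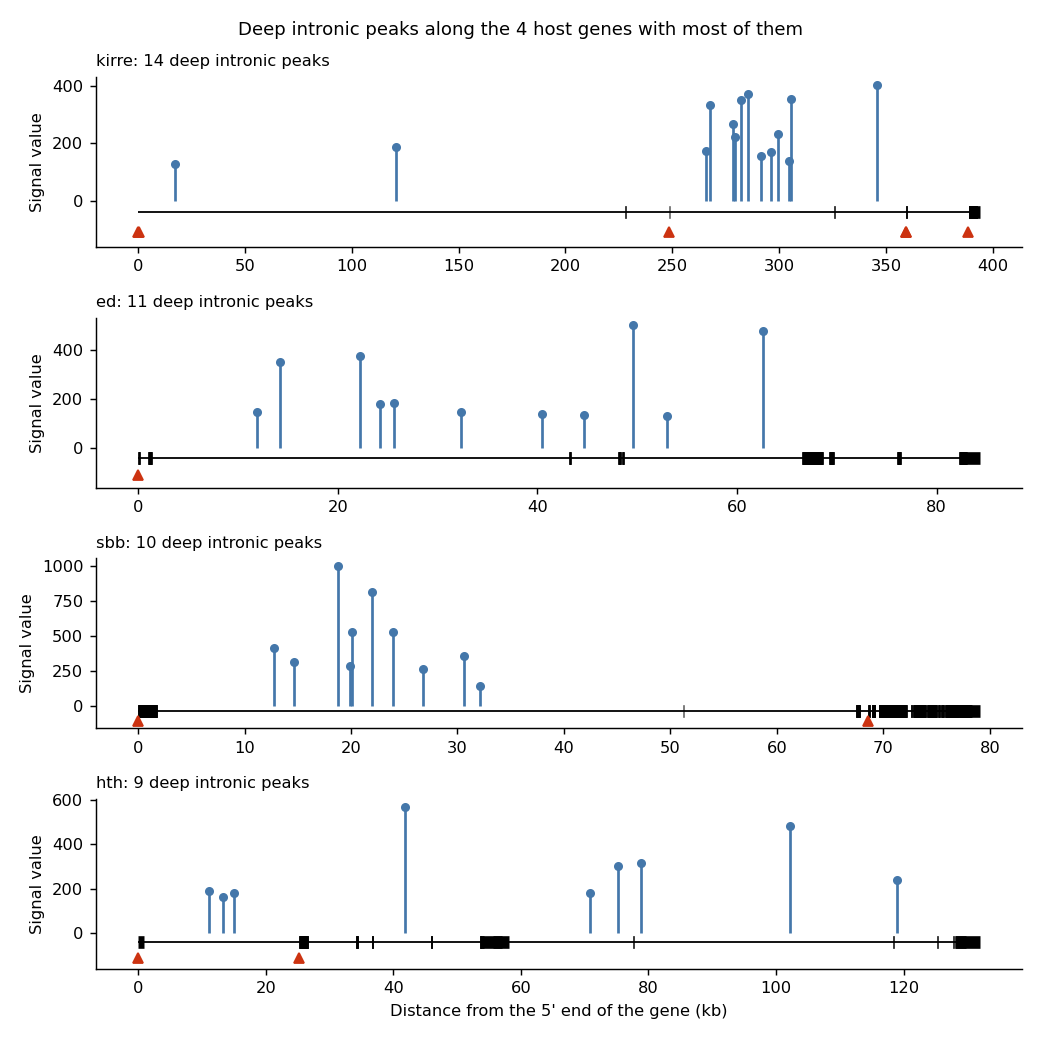
Signal value (vertical axis, authors' scale) of each deep intronic peak against distance from the 5′ end of the gene in kb, for the 4 host genes with most of them. Black bars on the line below 0 are exons and red triangles TSSs of the gene. In kirre 11 of 14 peaks lay between 265.6 and 305.8 kb, and in sbb all 10 between 12.8 and 32.1 kb.

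The other frequent hosts included Sema1a (a semaphorin that guides axons; 7, 6 and 7 summits in the replicates), Tet (the fly member of the TET dioxygenase family; 5, 6 and 6), pnt (an Ets transcription factor of receptor tyrosine kinase signalling; 6, 6 and 5) and ftz-f1 (a nuclear receptor; 5, 6 and 6). For their size, pnt and ftz-f1 were the most densely occupied of the 15, with 60.6 and 58.7 peaks per 100 kb of deep intron, followed by B4 with 50.9 and sbb with 39.3. The figure over all 861 genes was 2.50. Since the 15 were picked by their peak counts, densities above that figure follow in part from the choice. Peak pairs that the replicates do not separate, as in ftz-f1, B4 and sbb, count as separate peaks in these densities. The replicates differed most in tai, a coactivator of the ecdysone receptor, with 9, 6 and 4 summits. For rdx, a substrate adaptor of Cullin ubiquitin ligases, they were 5, 6 and 4, and for jing, a zinc finger transcription factor gene, 5, 4 and 5.

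The share of genes that hosted a deep intronic peak was above that of all genes in 4 lists of developmental regulators and below it in the list of channels. Among genes with deep intronic DNA, 8 of 14 nuclear receptor and ecdysone response genes were hosts (57.1%), 15 of 30 signalling genes (50%), 18 of 42 other developmental transcription factor genes (42.9%) and 11 of 29 homeobox genes (37.9%), beside 24.6% of all 861. Shares were 31.6% for RNA-binding regulators (6 of 19) and 27.2% for axon guidance and synaptic surface genes (22 of 81). The share was 12.8% for ion channels and receptors (5 of 39). The lists overlap in a few genes, such as pnt, tai and knrl, and no test was made over them.

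In the replicate lists the first 4 of these shares lay above the share of all genes in each replicate. They were 50, 64.3 and 64.3% for nuclear receptor and ecdysone response genes and 40, 60 and 53.3% for signalling genes. The other transcription factors had 40.5, 42.9 and 38.1% and homeobox genes 37.9, 37.9 and 34.5%. RNA-binding genes were also above the share of all genes (42.1, 31.6 and 42.1%). All genes with deep introns had 22.4, 25.9 and 25.5%. Ion channel genes (15.4, 15.4 and 10.3%) were below it in each. Axon guidance genes varied more, from 17.3% in replicate 1 to 29.6% in the other two.

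The amount of deep intron differed between the lists and did not follow the same order. The median per gene was 17.4 kb for nuclear receptor and ecdysone response genes, 11.2 kb for signalling genes and 7.82 kb for homeobox genes. It was 20.1 kb for axon guidance genes and 37.3 kb for RNA-binding genes, against 8.55 kb over all. Per 100 kb of deep intron, nuclear receptor and ecdysone response genes had 8.75 peaks, signalling genes 7.61, homeobox genes 6.08 and the other transcription factors 5.70. Axon guidance genes had 2.11, RNA-binding genes 1.05 and ion channels 0.9503. Large genes without a peak lower the first 2 of these values. DIP-lambda gave 332.6 of the 2699 kb of axon guidance genes, and bru3 220.5 of the 956.8 kb of RNA-binding genes.

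**Figure D4:**
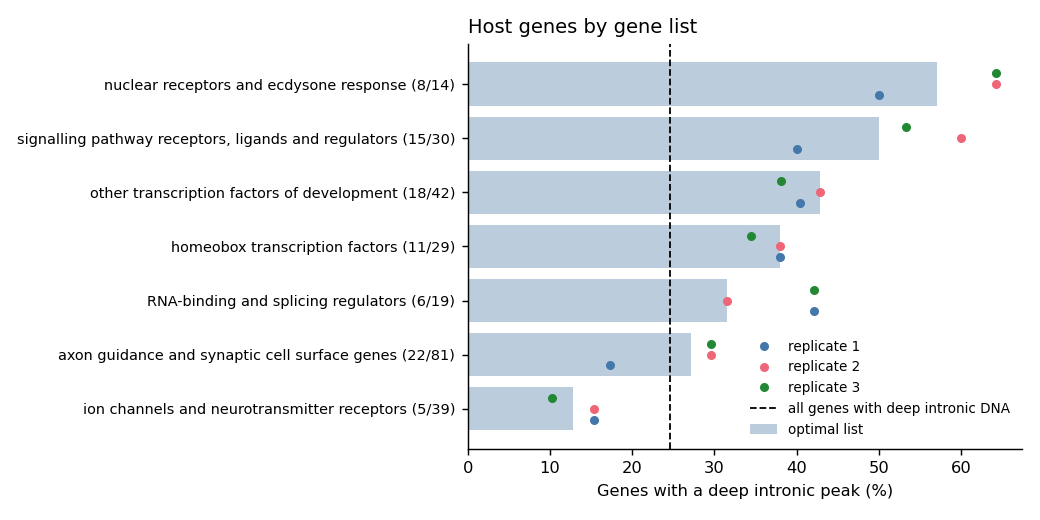
Percentage of the genes with deep intronic DNA that held a deep intronic peak, for 7 gene lists. Bars are the optimal list (hosts of genes in parentheses), dots the 3 replicate lists and the dashed line all 861 genes, at 24.6%. The upper 5 lists lie above the line and the list of channels below it in every replicate.

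The strongest hosts of each list had these values. Among nuclear receptor and ecdysone genes, Hr4 had 4 peaks (3, 3 and 4 in the replicates; strongest 928.7), ftz-f1 had 6 (strongest 562.6) and the cyclin-dependent kinase gene Eip63E had 2 (strongest 422.8). Among signalling genes, N had 2 peaks (3, 2 and 2), fz 3 (2, 3 and 4) and jeb, the ligand of the Alk receptor, 1 with a value of 570.0. Of the homeobox genes, Antp had 4 (6, 5 and 5 in the replicates), hth 9 and ct 1, with a value of 374.9.

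Of the other transcription factors, mamo had its peak of 720.5, the Krüppel-like factor gene luna had 3 (4, 3 and 4; strongest 537.7) and dar1, of the same family, had 1 of 481.1. Axon guidance hosts were led by DIP-alpha, which encodes an immunoglobulin protein of synaptic partners, with 1 peak of 584.9, by NetA, a netrin, with 4 (strongest 559.1), and by Sema1a (strongest 513.1). Channel genes had lower values: 328.8 in the calcium channel subunit gene Ca-beta, 243.2 in nAChRalpha6 and 176.9 in mAChR-B. The RNA-binding genes cpo, msi and pum had at most 186.9, 186.1 and 180.2.

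Within their genes the peaks lay in very long introns, of 28.8 kb in the median for the 432 summits inside an intron of the host's longest transcript. First introns of these transcripts held 24.4% of the peaks (24.6, 24.2 and 26.5% of the replicate summits; 25.1 ± 1.22, SD, n = 3) and 14.7% of the deep intronic bases. The median distance to the nearest exon was 4442 bp, against 3452 bp for deep intronic bases, and 35 summits (8.05%) were within 500 bp of an exon, against 14.5% of those bases. For 274 (63.0%) the nearest protein-coding TSS belonged to the host; for the others it was that of another gene. Of the 435, 211 (48.5%) lay within 5 kb of another deep intronic summit and 66 within 1 kb, and the median gap was 5630 bp. Neither these shares nor that of nearest host TSSs were taken over deep intronic bases or other peaks. They therefore do not set the deep intronic peaks apart, and clustering was not tested. Some of the closest pairs, such as those in Snoo, ftz-f1, jing, inv and B4, overlapped the same strongest region in each replicate. The replicates do not separate such pairs, so these counts may include single sites called in parts.

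Of the 8 summits near a noncoding TSS, the strongest was the osa peak, 143 bp from the TSS of lncRNA:CR46036, and osa held a second, with a value of 128.9, 181 bp from lncRNA:CR46035. The others were in DIP-alpha (205 bp from lncRNA:CR34335), dlp (102 bp from lncRNA:CR45888; the glypican Dally-like), Eip63E (270 bp from lncRNA:CR45820), pnt (122 bp from lncRNA:CR46090), CG46321 (491 bp from lncRNA:CR46322, in DNA that CG12912 and the nuclear receptor gene Hr3 also span) and ed (62 bp from asRNA:CR44984). When the TSSs of all annotated genes except transposable elements were counted, 346 peaks still lay more than 10000 bp from any, an alternative added after seeing the data.

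The deep intronic summits lay on short stretches rich in A and T. The stretches within 50 bp of them had a median GC content of 29.7%, with the middle 50% between 25.7 and 35.6%. All 170528 windows of the same length laid end to end over deep intronic DNA had a median of 40.6%, with the middle 50% between 33.7 and 46.5%. The same measure was 30.7% in introns at 2 to 10 kb and 33.7% at promoters. In the replicate lists it was 32.7, 29.7 and 30.7% (31.0 ± 1.51, SD, n = 3) for deep introns, which lay -2.64 ± 1.51 points from promoters (exact two-sided sign-flip permutation p = 0.25, the smallest possible) and -0.660 ± 0.572 points from introns at 2 to 10 kb (p = 0.5 in the same test). Soft-masked bases made up 24.2% of the centres and 23.4% of the windows.

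The dip was narrow. Mean GC content in 51 bp steps was 30.5% at the summit, 39.7% and 40.4% at 100 bp on either side, and 45.3% and 44.4% at 250 bp. At promoter peaks the mean was 34.5% at the summit and still 35.8% and 37.7% at 100 bp.

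**Figure D5:**
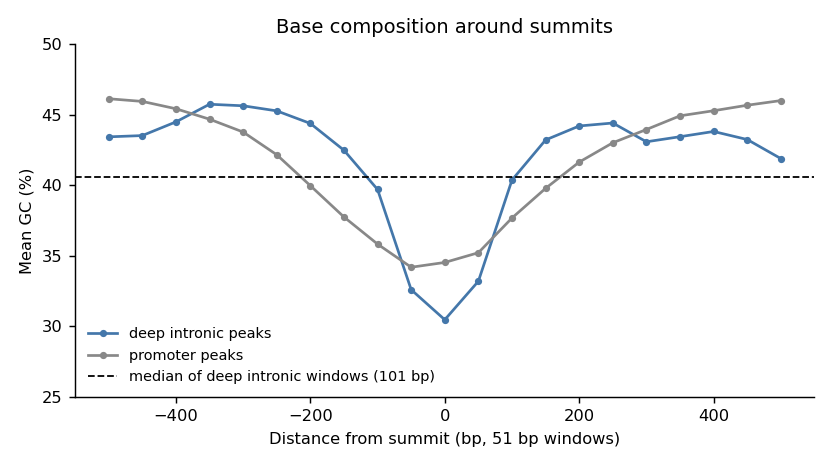
Mean GC content (%) in 51 bp windows by distance from the summit in bp, for the 435 deep intronic peaks and the 3601 promoter peaks, on the plus strand of the genome. The dashed line, at 40.6%, is the median of longer windows, 50 bp on either side of a centre, laid over deep intronic DNA. Deep intronic peaks reached 30.5% at the summit and passed the dashed line between 100 and 150 bp on either side, while promoter peaks had a wider dip.

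Motifs were searched on both strands within 50 bp of the summit, 40 in all. The largest ratios to the windows of deep intronic DNA rested on almost no peaks: GGTCACACT, the M1BP consensus, was in 1 of 435 peaks and AGGTGGCG, from the CTCF consensus, in 2. Of the more frequent motifs, TATATA was in 52 peaks (12.0%, against 6.39% of windows), AGATAA, the GATA factor consensus, in 40 (9.20% against 5.70%), AAAAAAAA, which on the opposite strand contains the Hunchback letters TTTTTT, in 48 (11.0% against 6.95%) and TATTTATA, the Mef2 consensus, in 14 (3.22% against 2.05%). In the replicate lists the AGATAA share was 7.97, 9.22 and 8.53%, above that of windows in each, and the TATATA share 8.94, 11.8 and 12.4%. These shares were not particular to deep introns. Peaks in introns at 2 to 10 kb had 11.2% for TATATA, 9.67% for AGATAA, 10.5% for AAAAAAAA and 3.79% for TATTTATA. Over all optimal peaks the shares were 10.6, 8.11, 8.06 and 4.06% in the same order.

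Since windows differ in composition from peak centres, the comparison was repeated, after seeing the data, among the 246 peaks and 45908 windows with a GC content between 25.7 and 35.6%. The ratio was then 1.28 for TATATA (14.2% against 11.1%), 1.29 for AGATAA (11.0% against 8.54%), 0.979 for TATTTATA and 0.735 for AAAAAAAA, so that the last was no longer more frequent at peaks.

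At the other end, the lowest ratios belonged to motifs with CG steps. GCCGCC, bound by Mad, was in 2 peaks (0.460% against 3.63% of windows). Within the GC range given above, only 0.640% of windows held GCCGCC, and 0 of the 246 peaks did. With so few peaks, counting error alone does not let 0 be told apart from that share. Within 100 bp of the summit the shares of GCCGCC were 3.68% of peaks and 7.22% of windows of that length. TGACGTCA, the CRE, and TATCGATA, the DNA replication-related element (DRE), were in 0 of 435, which allows a share of up to 0.690% by counting error. The windows had 0.127% and 0.222%. The DRE was in 4.47% of promoter peaks, 4.47 ± 0.678% in the replicate lists (SD, n = 3), and in none of the deep intronic summits of any replicate list. The shorter letters ATCGAT, contained in the DRE, were in 4 deep intronic peaks (0.920%) and in 11.3% of promoter peaks. CGATA, also contained in it, was in 8.28% and 24.9%. Peaks in introns at 2 to 10 kb were close to the deep intronic ones, with 0.0806% for the DRE, 1.77% for ATCGAT and 9.19% for CGATA. Both shorter runs of letters were named after their values were seen.

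7-mers were ranked on 2L and 3L, where 157 of the peaks lie, and then read on the other arms, with 278. Of the 202 found in at least 10 peaks, ATAAGAT had the largest ratio: 14 of 157 peaks (8.92%) against 1.38% of windows. On the other arms it was in 6 of 278 (2.16%) against 1.25%, a ratio of 1.72 in place of 6.46. TATATCA and ATATCAT, which overlap by 6 letters, went from ratios of 5.10 and 5.005 to 2.19 and 1.70. AATCTTA, which shares 6 letters with ATAAGAT on the opposite strand, went from 4.57 to 2.63, TATAACA from 4.04 to 2.58 and ATTGATA from 3.52 to 2.31. All 6 were more frequent at peaks than in windows on both sets of arms, with smaller ratios on the arms not used for ranking. On the ranking arms this excess follows from the ranking itself. On the other arms all of the 40 leading 7-mers were more frequent at peaks, so this does not set the 6 apart. Within the GC range given above the ratios of the 6 were 1.45 to 2.25. These used peaks of all arms, including the arms that ranked the 7-mers, and are therefore no independent check.

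ACTAAAT was named after its values were seen, as the 7-mer with the largest ratio on the other arms. Its large ratio there follows from that choice and is no independent check. Nor was it alone in keeping its ratio: TATTTCA had 2.751 on 2L and 3L and 2.935 elsewhere. ACTAAAT was in 12 of 157 peaks on 2L and 3L (7.64% against 2.20% of windows, a ratio of 3.47). Elsewhere it was in 21 of 278 (7.55% against 2.08%, a ratio of 3.64). Within the GC range it was in 21 of 246 peaks on all arms (8.54% against 3.42%), again including the arms it was named from. It is the match in capitals in the gpp sequence. ATTGATA is the match in simj and, beside ATATCAT read on the opposite strand, in fz. AGATAA on the opposite strand is the match in Hr4, and AATCTTA that in Snoo. A match is a description of the letters, and the factor behind any of them was not tested.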

How the data were processed

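For build dm6 the authors deposited narrowPeak lists, 1 per replicate, and an optimal list selected by the irreproducible discovery rate and called on pooled alignments, per the deposited notes. The signal value is a score deposited by the authors with no stated scale, and was ranked within a list only. The −log10 q-value deposited by the authors was not used. The sources used here do not give the aligner, peak caller or thresholds.

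Summits were placed on Ensembl release 115 genes and the RefSeq Release 6 genome (Python 3.11.15, numpy 2.4.6, pandas 2.3.3, scipy 1.17.1). Each replicate was represented by its 7827 strongest regions, and regions with 1 bp or more in common were taken as overlapping. Replicates are biological per the labels. Shares have 95% exact binomial intervals, and differences between location classes were tested by exact sign-flip permutation over replicates. The procedures were tested on simulated data. dm3 lists were not used.

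The peaks, gene lists, motifs and tests were chosen with earlier results of these data known. Named are the 15 hosts with most peaks and the 3 strongest of each of 7 gene lists, the 10 strongest peaks, the 6 motifs with the largest and 3 with the smallest ratio, and the 6 leading 7-mers. The rest were named after their values were seen. Gene lists were matched by symbol. A further list is not reported here.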

Additional observations from a re-analysis of the deposited data

How the results depend on the processing

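The number of deep intronic peaks changed with the distance rule, to 958 beyond 5000 bp and 149 beyond 20000 bp, to 258 when the TSSs of all annotated genes counted, and to 156 in the stronger 50% of the optimal list. The number of hosts became 453, 73 and 95 under the first, second and last of these. The density relative to all arms stayed below 1 in the alternatives run for it: 0.599 beyond 5000 bp, 0.269 beyond 20000 bp, 0.447 with 1 summit per merged region, 0.305 in the stronger 50%, and 0.562 without the 10 large genes, which was added after seeing the data. The share found in every replicate was 98.7% in the stronger 50%, 49.4% with a reciprocal overlap of 50%, 25.7% with replicate lists of 4000 regions, and between 67.4 and 80.2% when 1 replicate was left out, the highest without replicate 1. The median signal percentile was 38.5 beyond 5000 bp, 39.3 beyond 20000 bp and 70.1 in the stronger 50%, where only strong peaks remain by construction. The median GC content was 33.3% within 100 bp of the summit. Under the alternatives 26 other values of these measures moved less than the spread between replicates or stayed within 1.5 times the count. Of the shares of single named motifs, 30 stayed within that spread and 24 did not, 12 of them read in shorter or longer windows. Beyond these constructions (other distances, fewer peaks, other windows) the cause was not tested. No paired analysis was possible because the samples form 1 group, with no second group to pair; the differences between location classes were taken within each replicate. Depth is unknown and limits every statement on weak or missing peaks.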

Other observations

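The rule admits only long genes as hosts. The hosts had a median length of 52.9 kb, against 35.0 kb for the genes with deep intronic DNA and no such peak, and the share of genes with a deep intronic peak rose with the amount of deep intron. It was 5.09% in the 216 genes with the least (up to 3.04 kb), 15.8% and 30.7% in the next groups of 215, and 47.0% in the 215 with the most (from 20.8 kb). In the same order there were 4.72, 3.73, 3.82 and 2.04 peaks per 100 kb of deep intron. Of the 212 hosts, 78 (36.8%) also had an optimal peak within 500 bp of a TSS of their own, against 184 of the 649 genes with deep introns and no deep intronic peak (28.4%). Among the 15 hosts with most peaks, kirre, ed, hth, Snoo, Tet, pnt, CG12535, gpp and B4 had none at their own TSSs, while sbb, Sema1a, ftz-f1, rdx, tai and jing had at least 1. In 161 of the 212 hosts at least 1 deep intronic summit appeared in the list of every replicate, and 11 of the 435 peaks lay in more than 1 protein-coding gene.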
